A study of Bos taurus with 6 samples.

Results

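Deubiquitinases are the enzymes that take ubiquitin off proteins, and their transcripts were followed here in bovine cumulus cells, the somatic cells around the oocyte. The members were the probes whose platform symbol was USP followed by a number, began with OTU or UCHL, or was BAP1, CYLD, ATXN3, STAMBP or BRCC3, with USP18 left out. That took in 103 of 43794 gene probes, for 59 gene symbols, and no probe carried the symbol BAP1. Of these, 90 probes for 53 genes could be tested, out of 32125 tested probes and 12400 tested genes in all. The set was proposed with the ratio of USP22 between cetrorelix and control already known, so the members' values in that contrast are given as a description. Limma calls of the members in that contrast are counted beside the share over all tested probes or genes, and nothing is read from the counts.

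Both groups were cumulus cells of Holstein dairy cows that had received follicle-stimulating hormone (FSH) for 3 days and then none for 68 h. The cetrorelix cows also received 12 mg of cetrorelix per day for 5 days, starting on day 2 of FSH, and the control cows received no cetrorelix. By occupying the pituitary receptor of gonadotropin-releasing hormone, cetrorelix lowers secretion of luteinizing hormone; the labels call it an agonist, although it is known as an antagonist. The study used 6 cows, and the labels do not say which of them stand behind each of the 3 biological replicates or whether cells were pooled. Each replicate was hybridised on a pair of 2-colour arrays with swapped dyes, 6 arrays in all, and the 3 arrays with cetrorelix in Cy5 lay on one slide and the 3 with cetrorelix in Cy3 on another, so dye orientation and slide cannot be told apart. All log2 ratios are cetrorelix over control, ± values are the SD over the 3 replicates (n = 3, each the mean of its 2 arrays), and raw values are the scanner's median spot intensities.

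Ubiquitin is joined to proteins by a chain of E1, E2 and E3 enzymes, and it marks them for the proteasome, for sorting in the endosome or for a change of partners. Deubiquitinases reverse that mark. Most are cysteine proteases of the USP, OTU, UCH and Josephin families, and a few are metalloproteases of the JAMM family. USP22 is the protease of the SAGA coactivator complex, which removes the single ubiquitin from histone H2B that the RNF20 and RNF40 ligase places there. In the ovary the family is best known from mouse oocytes, in which UCHL1 is abundant.

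The label of the cells was checked against markers. All 10 granulosa and cumulus markers looked for were measured, and FSHR, CYP19A1, INHA, INHBA, AMH and FST were above background in both channels of all 6 arrays. FOXL2 was above background on 3 arrays for cetrorelix and on 2 for control. The summed normalised intensity of the 10 markers ranged from 183963 to 252903 in cetrorelix and from 147102 to 216157 in control. By ratio, 7 of the 10 were above 0 and 3 below. GATA4 rose by a log2 ratio of 1.09 ± 0.43 (limma adjusted p = 0.027 over all tested probes). AMH and INHA were higher on 6 of 6 arrays at 1.48 ± 1.21 and 0.70 ± 0.03 without passing the adjusted test (limma adjusted p = 0.058 and 0.082). FSHR, INHBA and CYP19A1 were the 3 below 0, at -0.37 ± 0.38, -0.32 ± 0.25 and -0.23 ± 0.73. The 13 oocyte markers summed to between 1948 and 2747 in cetrorelix and between 1851 and 2435 in control. Of these, 5 exceeded background on at least 3 arrays for cetrorelix and 6 for control. KPNA7 did so on 6 arrays in each group, FIGLA on 5 for cetrorelix and 6 for control, and GDF9, ZAR1 and ZP4 on no array. The 11 theca and stroma markers summed to between 9660 and 16709 in cetrorelix and between 7126 and 11991 in control. Of these, 8 exceeded background on at least 3 arrays for cetrorelix and 7 for control. ACTA2, COL1A1, LUM and MYH11 did so on 6 arrays in each group, and COL1A2 and DCN on no array. ACTA2 averaged 0.50 ± 0.15 (limma adjusted p = 0.22). For the 6 erythrocyte markers measured the sums were 1067 to 1974 and 945 to 1321, with GYPC at 0.46 ± 0.34 (limma adjusted p = 0.31). For the 9 leukocyte markers they were 1358 to 1671 and 1344 to 1652, and for the 8 endothelial markers 1077 to 1387 and 1092 to 1387. At least 3 arrays exceeded background for 3 erythrocyte, 4 leukocyte and 6 endothelial markers in cetrorelix. In control the counts were 4, 6 and 5. AHSP, GYPC, HBA, PTPRC and CD68 were above background on 6 arrays in each group. Whether these markers take part in the results below was not tested, and in bulk cells fewer cells of a type and less RNA per cell cannot be told apart. Across the 6 arrays, 40.9% to 70.9% of gene probes exceeded background for cetrorelix and 54.8% to 69.7% for control. The ratios of arrays on one slide correlated across probes at 0.21 to 0.64, whereas the dye-swapped arrays of one replicate correlated at -0.12 to 0.25.

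USP22 was the highest deubiquitinase in the contrast from which it was picked. Its one probe (EMBV3_24400) read 13734, 9251 and 14010 for cetrorelix in replicates 1, 2 and 3 with cetrorelix in Cy5, and 16593, 15727 and 18145 with cetrorelix in Cy3. The control channel of the same arrays read 5315, 7389 and 6646, then 5292, 7524 and 5790. The raw values of the groups did not overlap, and the narrowest gap within an array was that of replicate 2 with cetrorelix in Cy5. The share of all probes without such overlap is not given here. After normalisation the log2 ratios were 1.72, 0.94 and 1.43 with cetrorelix in Cy5 and 1.63, 1.05 and 1.38 with cetrorelix in Cy3. The mean was 1.36 ± 0.34, a 2.56-fold difference, and the dyes gave the same picture, with means of 1.36 and 1.35. The authors' deposited table listed 1.61, 0.62, 1.32, 1.66, 1.05 and 1.42 for the same arrays in the same order, with the lowest value again on replicate 2 in Cy5.

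The other 52 member genes, read from their brightest tested probe, lay on both sides of 0. Of these, 25 were above 0 and 27 below, with a range from -1.06 to 1.34. Their median was -0.01, against -0.01 over all 12400 tested genes, and their median in single replicates was -0.07, -0.12 and -0.02. The median size of the ratio regardless of sign was 0.20, against 0.18 over all genes. At least a 1.5-fold difference was reached by 6 of 52 genes (11.5%), against 8.94% of all genes.

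The counts of calls are given for the members other than USP22. At an unadjusted limma p under 0.05, 14 of 89 member probes were called in the contrast of cetrorelix over control, 15.7% against a background of 13.0% of all tested probes. By direction, 6 were higher (6.74%, background 6.33%) and 8 were lower (8.99%, background 6.64%). After Benjamini-Hochberg adjustment over all probes, 1 was higher, a probe of USP7 (1.12%, background 0.769%), and 0 were lower (background 0.258%). Counted by gene, 11 of 52 were called at the unadjusted threshold (21.2%, background 17.4% of all genes), with 4 higher (7.69%, background 8.20%) and 7 lower (13.5%, background 9.15%). The adjusted call was 1.92% of the genes, against 1.22% of all genes higher and 0.339% lower. The same sign on 6 of 6 arrays was shown by 3 probes above 0 (3.37%, background 3.12%) and by 9 below 0 (10.1%, background 4.08%). By gene it was 2 above 0 (3.85%, background 4.16%) and 7 below 0 (13.5%, background 5.48%). Of the 90 tested member probes, 7 passed the background filter through the control channel alone and 5 through the cetrorelix channel alone. The former include USP21 and USP6NL, which are 2 of the 7 lower genes and 2 of the 7 below 0 on 6 of 6 arrays, and which the filter favoured in that direction. Nothing is read from these counts, because the set was proposed from the same contrast. The adjusted calls also moved with single replicates: without replicate 1 there were 0 over all probes, against 330 with every replicate, and without replicate 3 there were 2344.

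**Figure D1:**
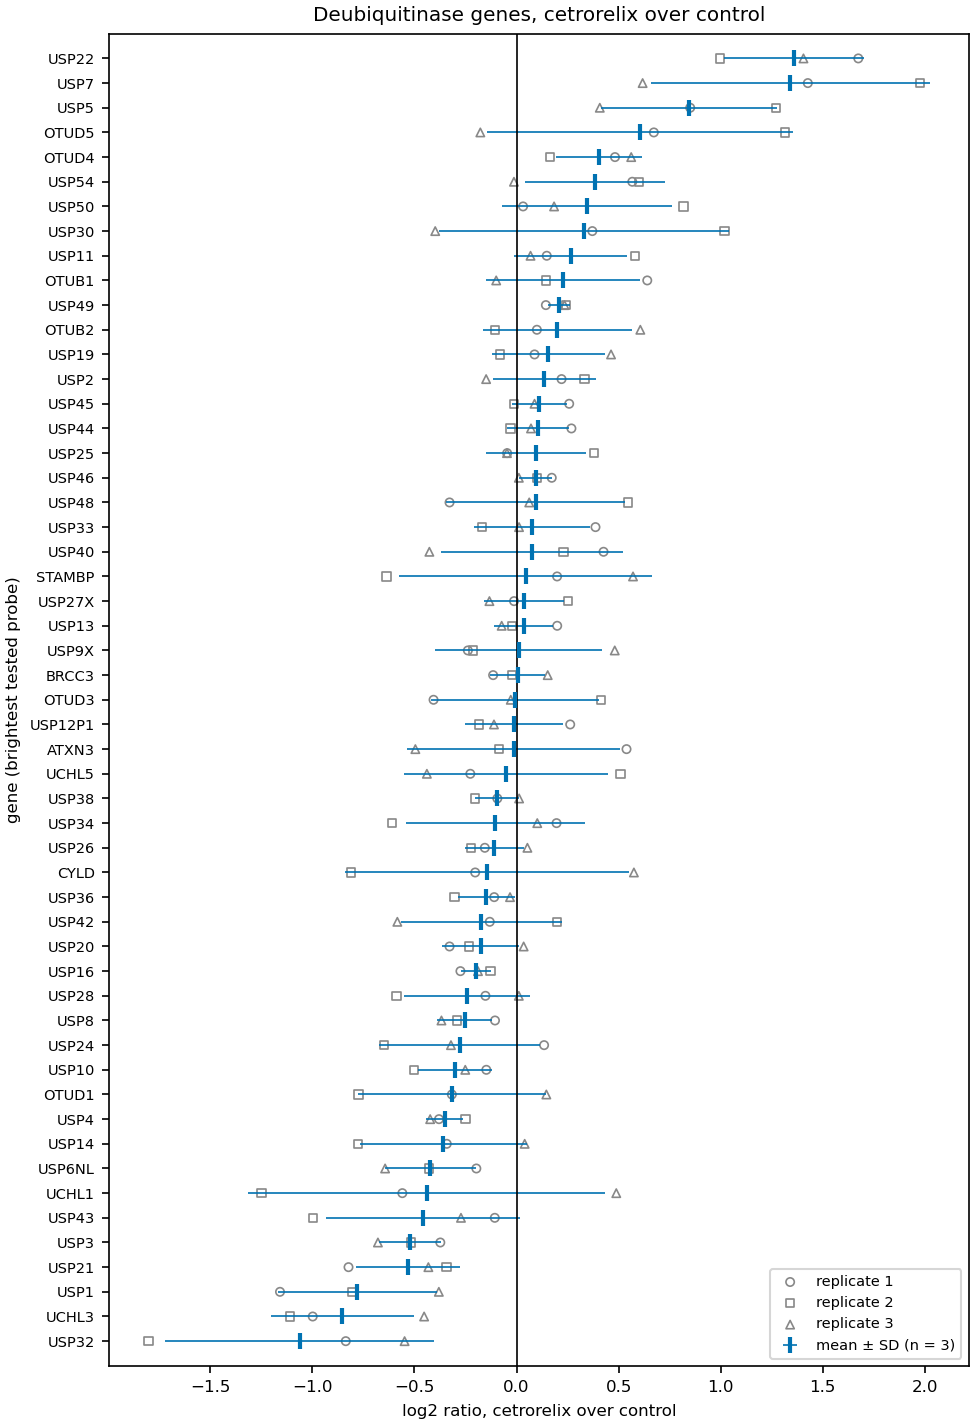
Log2 ratio of cetrorelix over control for the 53 measured deubiquitinase genes, each read from its brightest tested probe, with open symbols for the 3 replicates and blue marks for the mean ± SD. USP22 stands highest at 1.36 and USP32 lowest at -1.06, and 26 genes lie above 0 and 27 below.

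USP7 stood next to USP22, but not on all of its probes. USP7, the protease that stabilises MDM2 and p53 and also acts on chromatin regulators, is represented by 4 tested probes. The brightest (EMBV3_02849) read 3794, 4609 and 3100 for cetrorelix on the Cy5 arrays of replicates 1 to 3 and 5944, 6257 and 4467 on the Cy3 arrays. Its control values were 2070, 2279 and 2805, then 1912, 1332 and 2235. The raw values did not overlap between the groups. Its log2 ratios were 1.33, 1.79 and 0.61 with cetrorelix in Cy5 and 1.52, 2.16 and 0.62 with cetrorelix in Cy3, for a mean of 1.34 ± 0.68, with replicate 3 lowest in both orientations. Another probe of the gene that was above background everywhere (EMBV3_05653) read the other way, with log2 ratios of -0.07, -0.75 and -0.03, then -0.26, -0.72 and -0.15, and a mean of -0.33 ± 0.35. The remaining probes had means of 0.28 and -0.01, so the 4 probes of USP7 do not give one value for the gene.

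USP5 was the third gene that was higher on every array. It takes apart free ubiquitin chains and so returns ubiquitin to the pool. Its one tested probe read 5920, 7973 and 6380 for cetrorelix in the Cy5 orientation and 7258, 10611 and 8134 in the Cy3 orientation. Control read 4372, 5144 and 6399, then 3763, 4359 and 4849, so the groups overlapped through the control value of the Cy5 array of replicate 3. The log2 ratios were 0.84, 1.30 and 0.40, then 0.86, 1.24 and 0.42, with a mean of 0.84 ± 0.43 and the highest values in replicate 2.

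At the low end lay USP32, UCHL3 and USP1, each below 0 on 6 of 6 arrays. USP32, a membrane-bound protease of the endosome and Golgi, read 428, 175 and 291 for cetrorelix on the Cy5 arrays and 488, 265 and 340 on the Cy3 arrays. Its control values were 837, 621 and 453, then 738, 569 and 398, and the value of 175 was under the background limit of 219 of that channel. The log2 ratios of -0.66, -1.67 and -0.43, then -1.01, -1.93 and -0.67, averaged -1.06 ± 0.66, and replicate 2 was lowest, the mean being -0.69 without it. The other tested probe of USP32 had a mean of -0.10.

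UCHL3, a small hydrolase of the UCH family that also processes ubiquitin precursors and NEDD8, read 679, 464 and 826 for cetrorelix in Cy5 and 961, 638 and 1464 in Cy3. Control read 1595, 1235 and 1496, then 1717, 1386 and 1514. The ranges overlapped through the cetrorelix value of the Cy3 array of replicate 3 alone. Its log2 ratios were -0.87, -0.77 and -0.42, then -1.13, -1.45 and -0.48, with a mean of -0.85 ± 0.35.

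USP1, which removes ubiquitin from FANCD2 and PCNA during DNA repair, was dimmer. It read 209, 207 and 292 for cetrorelix in Cy5 and 314, 293 and 369 in Cy3, against 382, 446 and 359, then 553, 272 and 443 in control. On the Cy3 array of replicate 2 the raw cetrorelix value was the higher one, and after normalisation all 6 ratios were below 0. They were -0.88, -0.98 and -0.03, then -1.43, -0.63 and -0.73, with a mean of -0.78 ± 0.39.

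**Figure D2:**
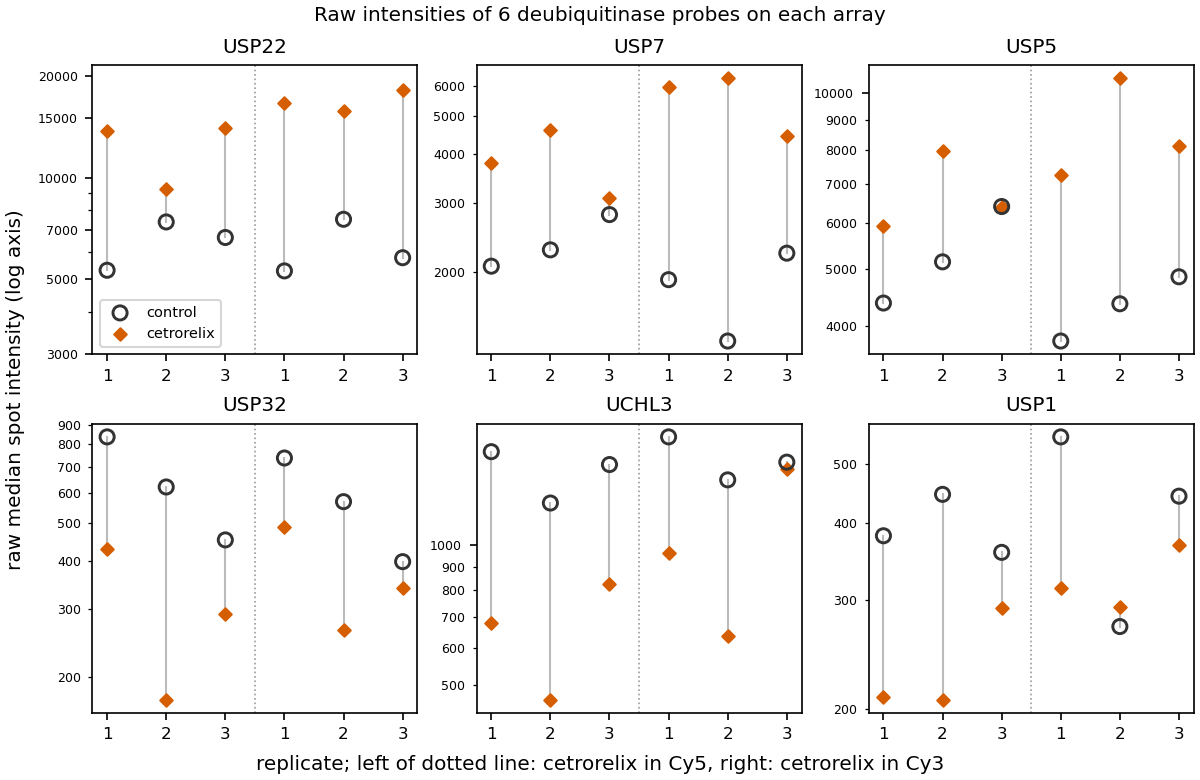
Raw median spot intensity (log axis, own scale in each panel) of the brightest tested probe of 6 deubiquitinase genes, with open circles for control and diamonds for cetrorelix of the same array, replicates 1 to 3 on each side of the dotted line. The raw values of USP22 and of this probe of USP7 show no overlap between groups, and the USP5 values of replicate 3 in Cy5 (6380 and 6399) almost coincide. The 6 genes are the extremes of this contrast, and the share of all probes without overlap is not given here.

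Grouped by family, the USP genes lay evenly around 0. Of 43 symbols placed in this family, which include CYLD and USP6NL, 41 were measured, 20 above 0 and 21 below, with a median of -0.01. CYLD averaged -0.15 ± 0.69. Below 0 on all 6 arrays were also USP3, a histone H2A deubiquitinase, at -0.52 ± 0.15, USP21 at -0.53 ± 0.26 and USP10, which acts on p53, at -0.30 ± 0.18. USP21, likewise an H2A deubiquitinase, exceeded background for cetrorelix on 2 of 6 arrays and for control on 6 of 6, so on the other 4 arrays its cetrorelix value is only an upper bound. The other 2 probes of USP3 had means of -0.13 and 0.09. USP43 averaged -0.46 ± 0.47, with replicates of -0.11, -0.998 and -0.27 and a mean of -0.19 without replicate 2. It had one of its 3 probes (EMBV3_07332) above background in no cetrorelix channel and in 3 control channels, so that this probe gives only a bound. USP6NL, at -0.42 ± 0.22, entered by the letters of its symbol; it is a GTPase-activating protein for RAB5 and no deubiquitinase. It exceeded background on 2 of 6 arrays for cetrorelix and on 4 for control, so its ratio too rests largely on values at background. Above 0 were USP54 at 0.38 ± 0.34, USP50 at 0.34 ± 0.42 and USP30, which sits on the mitochondrial outer membrane and opposes mitophagy, at 0.33 ± 0.71. USP30 replicates ran from -0.40 to 1.02, a spread wider than its mean.

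The OTU family was measured through 6 of 10 symbols, 4 of them above 0, with a median of 0.21. OTUD5, a regulator of innate immune signalling, averaged 0.60 ± 0.75 on its brightest probe, and its replicates were 0.67, 1.32 and -0.18. Its mean was 0.25 without replicate 2 and 0.99 without replicate 3. The 3 probes of OTUD5 had means between 0.24 and 0.60. OTUD4 averaged 0.40 ± 0.21, and nearly all of it came from one orientation, with ratios of 1.02, 0.32 and 1.05 with cetrorelix in Cy5 and of -0.06, 0.00 and 0.07 with cetrorelix in Cy3. OTUB1 and OTUB2 averaged 0.23 ± 0.38 and 0.20 ± 0.37, and OTUD1 averaged -0.31 ± 0.46. OTUD6A, OTUD6B, OTUD7A and OTUD7B were too dim to be tested, as was USP37, and the one probe of USP39 had a marked spot.

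All 3 UCH genes lay below 0, with a median of -0.44. Besides UCHL3, UCHL1 averaged -0.44 ± 0.87, and its replicates disagreed in sign, at -0.56, -1.25 and 0.49. Its 3 probes had means between -0.44 and 0.13. UCHL5, which docks on the proteasome, averaged -0.05 ± 0.50. The JAMM proteases BRCC3, of the BRCA1-A complex, and STAMBP, of the endosome, averaged 0.01 ± 0.14 and 0.04 ± 0.62. ATXN3, the Josephin protease of polyglutamine disease, averaged -0.01 ± 0.52, with replicates from -0.50 to 0.54.

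Grouped by role, the histone deubiquitinases to which USP22 belongs lay on both sides of 0. Of 11 measured genes with that role, 6 were above 0 and 5 below, and their median was 0.04. USP27X, which can take the place of USP22 in the module that removes ubiquitin from H2B, averaged 0.04 ± 0.20. USP16, an H2A deubiquitinase of mitosis, averaged -0.20 ± 0.07, USP36 -0.15 ± 0.14, USP44 0.10 ± 0.15 and USP49 0.21 ± 0.05. USP46 averaged 0.09 ± 0.08, although another of its probes (EMBV3_10284) averaged -0.41 ± 0.06 and was below 0 on 6 of 6 arrays. The proteasome-bound USP14 averaged -0.36 ± 0.41 on its brightest probe and 0.30 ± 0.22 on the other. The 5 measured genes of protein quality control had a median of 0.10, the 5 of DNA repair 0.01, the 5 of inflammatory signalling 0.20 and the 4 of the endosome -0.11.

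Probes of one gene often disagreed. Several tested probes were available for 24 genes, and for 14 of these the probe means had both signs. The median distance between the highest and the lowest probe of a gene was 0.26, and USP7 was the one gene past 1, at 1.67. USP48 gave 0.09 ± 0.44 on its brightest probe and 0.52 ± 0.31 on a second (EMBV3_10952), which was above 0 on 6 of 6 arrays. For 29 genes, USP22 among them, a single tested probe is all there is, and no second probe can be set against it.

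**Figure D3:**
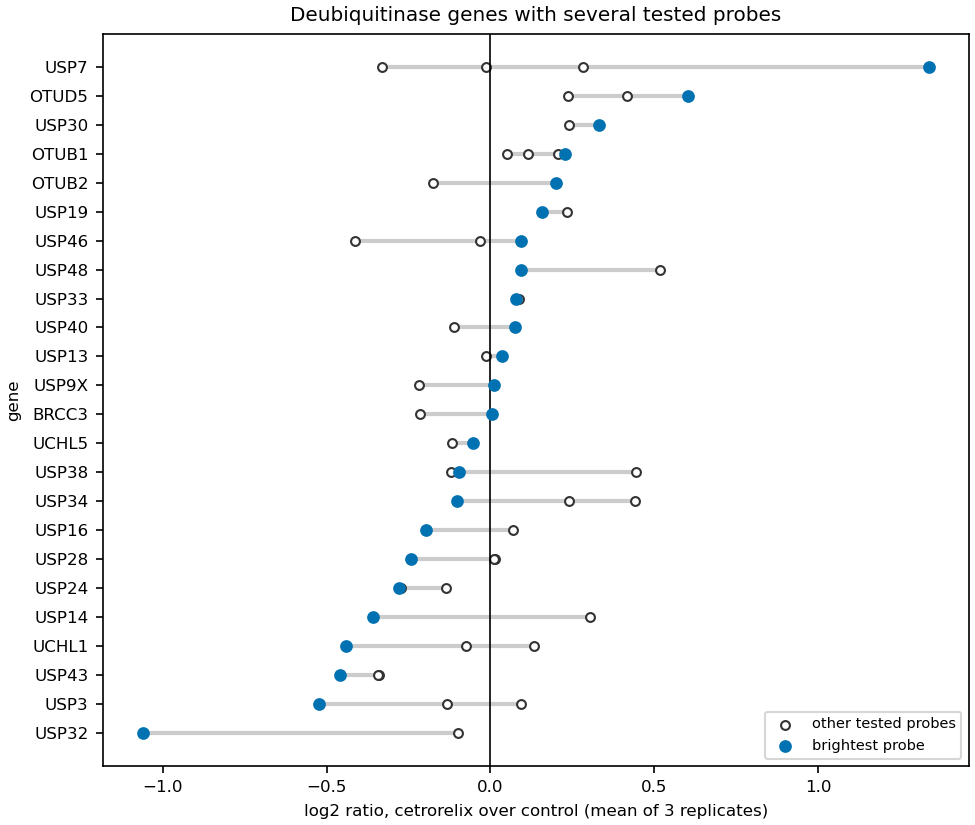
Mean log2 ratio of cetrorelix over control for the tested probes of the 24 deubiquitinase genes with more than 1, filled for the brightest probe and open for the others, joined by a grey line. The line of USP7 spans 1.67, and the probes of 14 genes fall on both sides of 0.

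The difference between the dye orientations was not used to choose the set and could be tested. For each replicate, the log2 ratio from the array with cetrorelix in Cy3 was taken from that with cetrorelix in Cy5, and the 3 differences were tested against 0 with limma. After adjustment over all probes, 7 of 90 member probes differed by orientation, 7.78% against a background of 13.0%. At the unadjusted threshold there were 21 of 90 (23.3%, background 26.7%). By brightest probe it was 4 of 53 genes after adjustment (7.55%, background 12.9%) and 12 of 53 before it (22.6%, background 27.1%). The member shares were below those over all probes, and no test of that difference was run. Without replicate 3 the adjusted count was 4.

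The widest gap was that of USP11, a nuclear USP of DNA repair. Its ratios were -0.73, -0.21 and -1.10 with cetrorelix in Cy5 and 1.02, 1.37 and 1.24 with cetrorelix in Cy3. The sign followed the dye orientation, and with it the slide, on all 6 arrays. The difference was -1.89 ± 0.40 (limma adjusted p = 1.6e-05). USP38 ran the other way on its brightest probe, at 0.50, 0.65 and 0.94 in Cy5 and -0.69, -1.05 and -0.91 in Cy3, a difference of 1.58 ± 0.35 (limma adjusted p = 0.00021). Their mean ratios, 0.27 ± 0.28 and -0.09 ± 0.11, are averages over values of opposite sign. The other probes with a difference were those of USP50 (-1.53 ± 0.28), OTUB1 (EMBV3_00912, -1.37 ± 0.06), OTUD5 (EMBV3_19700, -1.26 ± 0.60), USP24 (EMBV3_06875, -1.06 ± 0.37) and OTUD1 (0.97 ± 0.41). In USP22 the difference was 0.01 ± 0.10, in USP7 -0.19 ± 0.18 and in USP5 0.00 ± 0.04. In UCHL3 it was 0.33 ± 0.32, in USP1 0.30 ± 0.57 and in USP32 0.28 ± 0.06, and none of these 6 passed the test. By brightest probe, 26 of 53 member genes had means of opposite sign on the slides, against 6024 of all 12400 genes.

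**Figure D4:**
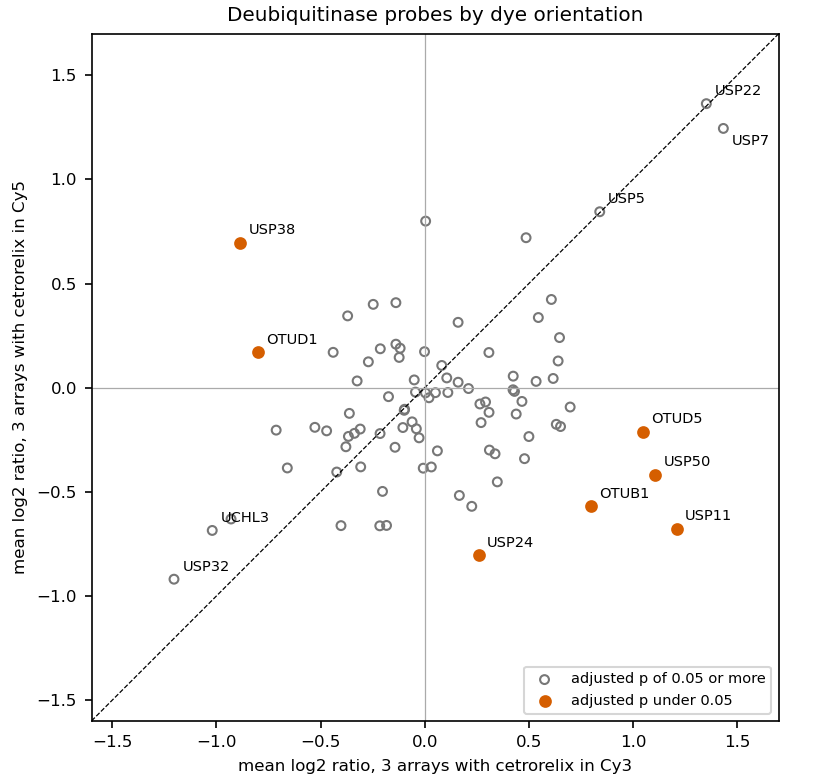
Mean log2 ratio of each of the 90 tested deubiquitinase probes on the 3 arrays with cetrorelix in Cy3 (horizontal) and on the 3 with cetrorelix in Cy5 (vertical), with the dashed line where both are equal and filled points for the 7 probes whose difference passed the adjusted test. USP22 (1.35 and 1.36) and USP5 lie on the line, while USP11 (1.21 and -0.68) and USP38 (-0.89 and 0.70) lie in opposite quadrants.

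The other genes of the pathway were taken from lists of the partners, targets and relatives of these enzymes. Each was read from its brightest tested probe alone. Some had further tested probes, such as EIF3F and BRE with 4 tested probes each, and values of the further probes are not given here. Of 63 measured genes, 29 lay above 0 and 34 below, with a median of -0.07 against -0.01 over all genes. At an unadjusted limma p under 0.05, 12 were higher and 11 lower (backgrounds 8.20% and 9.15% of all genes), and after adjustment over all probes 0 passed in either direction. The 12 include TAF6L, which passed the background filter through the cetrorelix channel alone.

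In the SAGA module that holds USP22, 4 of 6 listed genes were measured and their median was 0.02. ATXN7L3, the adaptor that USP22 needs for its activity, averaged 0.48 ± 0.26 with replicates of 0.78, 0.31 and 0.35 and was above 0 on 6 of 6 arrays (limma adjusted p = 0.26). ENY2, another subunit of the module, averaged -0.19 ± 0.60, and ATXN7L1 and ATXN7L2 averaged -0.13 ± 0.39 and 0.17 ± 0.29. In the rest of SAGA 10 genes were measured, 5 on each side of 0. TAF12, a histone-fold subunit shared with TFIID, averaged -0.82 ± 0.25 and was below 0 on 6 of 6 arrays (limma adjusted p = 0.057). TAF10 averaged 0.52 ± 0.68 and TAF6L 0.45 ± 0.30, and the ratio of TAF6L also differed between dye orientations (limma adjusted p = 0.010). TAF6L exceeded background on 4 arrays for cetrorelix and on 2 for control, so the filter favoured it in the higher direction.

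Of the ligases that oppose the histone deubiquitinases, 3 of 5 genes of the H2B list and 4 of 7 of the H2A list were above 0, with medians of 0.37 and 0.16, and none passed the adjusted test. RNF40 and RNF20, which place ubiquitin on H2B, averaged 0.49 ± 0.19 and 0.46 ± 0.34, and each was above 0 on 5 of 6 arrays. RNF40 differed between dye orientations (limma adjusted p = 0.023). UBE2A and UBE2B, their E2 enzymes, averaged -0.03 ± 0.18 and -0.02 ± 0.28. Of the Polycomb proteins that place ubiquitin on H2A, 7 of 8 were measured, and RING1 averaged 0.75 ± 0.33 and was above 0 on 6 of 6 arrays (limma adjusted p = 0.083). Its paralogue RNF2 averaged -0.32 ± 0.21 and was below 0 on 6 of 6 arrays. PCGF3 averaged 0.58 ± 0.21 and PCGF2 0.55 ± 0.76, the latter with replicates of 0.78, 1.17 and -0.30.

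A further list held deubiquitinases with other symbols and their inactive relatives. Of 14 measured, 11 were below 0 and 3 above, against 6507 below 0 among all 12400 genes, with a median of -0.16, and 6 were lower and 1 higher at the unadjusted threshold, where 9.15% and 8.20% of all genes were called. The list itself was not tested. Below 0 on 6 of 6 arrays were STAMBPL1, the paralogue of STAMBP, at -0.76 ± 0.11, PSMD14, the protease of the proteasome lid, at -0.58 ± 0.34, COPS5, the protease of the COP9 signalosome, at -0.52 ± 0.18, and EIF3H, a subunit of translation initiation factor 3, at -0.79 ± 0.20. EIF3F, a subunit of the same factor with a related domain, averaged 0.58 ± 0.07 and was above 0 on 6 of 6 arrays. VCPIP1, an OTU protease of Golgi reassembly, averaged -0.56 ± 0.35, and the gene listed as ZUFSP averaged -0.41 ± 0.21.

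Among 21 measured partners, 10 were above 0 and 11 below. HGS, which sorts ubiquitinated receptors at the endosome, averaged 0.72 ± 0.62, SPATA2, the partner of CYLD, 0.67 ± 0.72, and ADRM1, the proteasome receptor of UCHL5, 0.60 ± 0.57. Replicate 2 was highest in each of these 3. Below 0 on 6 of 6 arrays were FAM175B and BRE, scaffold subunits that hold BRCC3, at -0.71 ± 0.35 and -0.39 ± 0.20, WDR20, an activator of USP12 and USP46, at -0.47 ± 0.09, and FOXK2, a partner of BAP1, at -0.52 ± 0.63. WDR48, which activates USP1, USP12 and USP46, averaged 0.32 ± 0.28. The E1 enzymes UBA1 and UBA6 averaged 0.01 ± 0.42 and 0.04 ± 0.18.

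**Figure D5:**
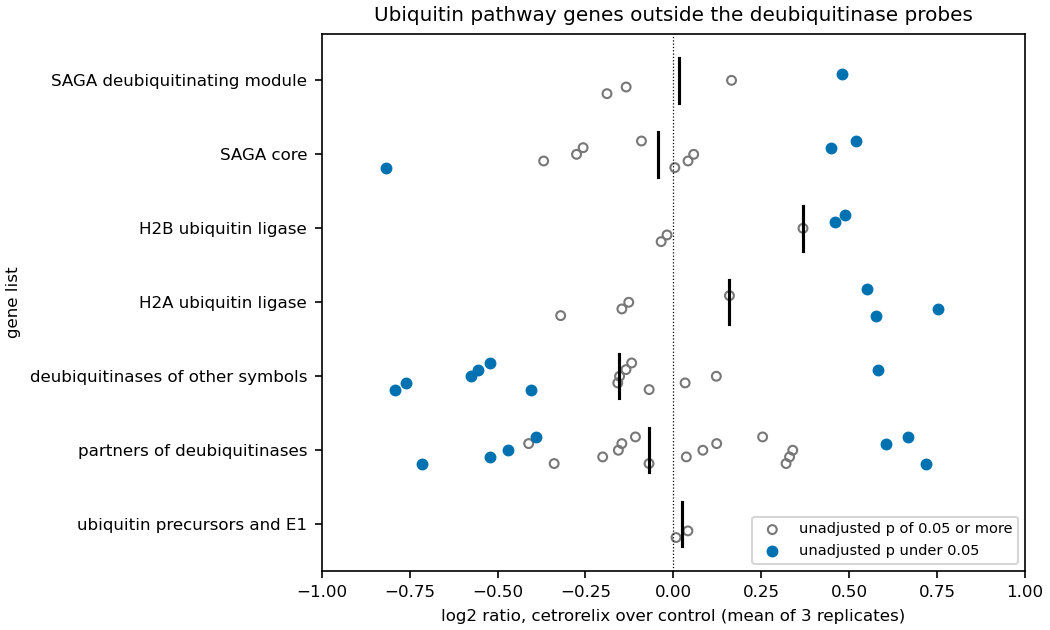
Mean log2 ratio of cetrorelix over control for the 63 measured genes of the ubiquitin pathway outside the deubiquitinase probes, by list, filled where the unadjusted limma p was under 0.05, with a vertical bar at each list's median. The medians run from -0.16 for deubiquitinases of other symbols to 0.37 for the H2B ligase list, and no gene passed the adjusted test.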

How the data were processed

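Cumulus cell RNA was amplified and then labelled with Cy3 or Cy5 by a chemical method, per the labels' protocols. Per the file headers, the deposited array tables give raw median spot intensity and local background intensity for each laser. The authors also deposited log2 ratios; the submitters' processing notes name limma without settings, and the sources used here do not give how they corrected background, centred and normalized. The column medians of the authors' series values were 0.01, -0.03, 0.01, -0.01, -0.01 and -0.02, and these values run as cetrorelix over control. Another deposited set of the ratios, which includes control spots, runs as Cy5 over Cy3. It correlated with the raw Cy5 over Cy3 ratio at 0.90 to 0.97 per array. Its sign is therefore opposite on the arrays with cetrorelix in Cy3.

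Spots marked to be ignored (36 to 94 per array of 45212) were set missing first. Background was corrected with normexp (offset 50), ratios were normalized by loess within arrays with control spots at weight 0, turned to cetrorelix over control, and averaged over the dye swap of each replicate. The resulting ratios correlated with the authors' log2 values at 0.987 to 0.997 per array. A channel counted as above background past the 95th percentile of 153 negative controls; probes so on at least 3 arrays in either group and complete on all arrays were tested (32125). limma 3.58.1 in R 4.3.3 (lmFit, eBayes) tested 3 values against 0, two-sided, and p was adjusted over all tested probes (Benjamini-Hochberg); the fit was tested on simulated data. A gene was read from its brightest tested probe. Of the 90 tested member probes, 39 were above background in both channels of all arrays; 11 member probes were too dim and 2 had a marked spot. With 6 arrays the precision is limited by their number. The p-values come from the spread between replicates, moderated by limma towards the spread over all tested probes. A p is thus not set by the replicates of its own probe alone. The labels do not identify the cows behind the replicates.

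Symbols came from the platform annotation (21790 probes with 1 symbol, 22004 unnamed here) and were updated through the RefSeq gene table where it matched: 20025 were current, 1524 matched a synonym and 241 were kept. The listed USP12P1 matched USP12 in this way. The members, the gene lists and the rule for genes named were chosen with earlier results of these data known. Genes were named when their unadjusted p was under 0.05, when among the 8 highest or lowest, when at least 1.5-fold with 1 sign on all arrays, when passing the test of dye orientation, or when their probes differed by more than 1; others named, such as USP10, USP16 and UCHL5, were chosen after their values were seen, to fill a family or a role. The alternatives were other background corrections, normalizations and filters, the authors' values, the replicate block, single slides and leaving out each replicate. Deviations of arrays with the same replicate number from their orientation means correlated at 0.222, 0.377 and 0.359, and the design text states that these arrays are dye swaps.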

Additional observations from a re-analysis of the deposited data

Results flagged for a closer look

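For 7 member probes the ratio of cetrorelix over control differed between the arrays with cetrorelix in Cy5 and those with cetrorelix in Cy3 (limma, adjusted over all probes). The difference, Cy5 orientation minus Cy3 orientation, was -1.89 for USP11, -1.53 for USP50, -1.37 for OTUB1 (EMBV3_00912), -1.26 for OTUD5 (EMBV3_19700), -1.06 for USP24 (EMBV3_06875), 0.97 for OTUD1 and 1.58 for USP38. In USP11, OTUB1, USP24 and USP38 every array of one orientation had the opposite sign to every array of the other. In USP50 the Cy5 ratios were -0.72, 0.19 and -0.73 and the Cy3 ratios 0.78, 1.45 and 1.10. The orientations lay on separate slides, so dye and slide cannot be told apart.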

How the results depend on the processing

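Of the alternatives, none turned the direction of USP22 or of the 11 other named genes with an unadjusted p under 0.05. The alternatives read the same 6 arrays or a part of them, and these genes were picked from this contrast. A kept direction is therefore no independent support. USP1, USP21, USP32, USP43 and USP6NL could be read in 14 of the 15 alternatives. They failed the filter on both channels of all 6 arrays. Each gene was followed on its brightest probe, so probes that read the other way, as in USP7, did not enter. USP22 ranged from 1.20 to 1.54, with 1.21 under median centring and 1.28 from the authors' deposited table, and from 1.20 to 1.54 when 1 replicate was left out. The count of member probes at the unadjusted threshold, USP22 included, was 15 (16.7%, against 13.0% of all probes). It became 24 on the arrays with cetrorelix in Cy3 alone (26.7% against 23.2%), with 16 higher and 8 lower. Among probes above background in both channels of all 6 arrays it was 6 of 39 (15.4% against 20.1%), a share below that over all probes. It ranged from 11 (12.2%, against 8.24% without replicate 1 and 7.46% without replicate 2) to 20 (22.2% against 18.2%, without replicate 3). Median centring without loess gave 18 (20.0% against 12.7%), 6 higher and 12 lower, so that 33.3% were higher against 46.7%. With the replicate block over 6 arrays it was 18 (against 13.8% over all probes), and 6 member probes passed after adjustment in place of 2. The block correlation was -0.065, so the 2 dye-swapped arrays of a replicate counted nearly as independent values there. Without replicate 1 no probe passed after adjustment, and without replicate 3 there were 8 members and 2344 in all. No member passed after adjustment without background correction, under median centring or on the authors' values, where 4, 16 and 9 probes passed in all. Keeping the marked spots in the background fit, chosen after seeing the data, left 11 unadjusted (12.2% against 11.1%) and 0 adjusted member calls. Slide as a term, also chosen after seeing the data, gave 20 (22.2% against 17.5%) and 6. That fit had no replicate block and counted the 6 arrays as independent, so its calls do not measure the spread between replicates.

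The number of member probes with an orientation difference (7, 7.78% against 13.0% of all probes) became 13 without background correction (14.4% against 17.0%), 12 with plain subtraction (13.3% against 14.6%), 12 under median centring (13.3% against 16.6%) and 11 on the authors' values (12.2% against 15.7%). Among probes above background on all arrays it was 10 of 39 (25.6% against 35.2%). It ranged from 4 (4.44% against 7.60%, without replicate 3) to 7 when 1 replicate was left out. The median of the member genes (-0.01) became -0.10 under median centring and -0.11 on the Cy5 arrays alone, and with 1 replicate left out it ranged from -0.079 (without replicate 1) to 0.0033 (without replicate 3). The causes were not tested. Ratios of OTUD4 ranged from 0.00 to 0.80 and those of USP6NL from -0.66 to -0.18 between the slides. Signal near background limits USP1, USP21, USP32 and USP6NL. No second probe could be tried for USP22.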
